A study of Homo sapiens with 4 samples.

Results

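The plasminogen activation system is covered here by 7 genes, chosen by name: PLAU, PLAT, PLAUR, SERPINE2, SERPINB2, F3 and THBD. A probe belonged to a gene when the platform annotation gave that symbol, which held for 9 probes and 6 of the 7 genes among 20043 genes on the array. No probe carried the symbol SERPINB2 in the annotation used, so that gene was not analysed here. PLAUR had 3 probes, F3 had 2, and the other 4 genes had 1 each.

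RNA was measured on an Illumina bead array with 1 array in each of 4 groups. The labels give MDA-MB-231, a breast cancer line, untreated; MCF10A, a non-tumorigenic breast epithelial line, untreated; MCF10A that received exosomes of MDA-MB-231; and MCF10A that received such exosomes carrying a Dicer antibody, Dicer being the enzyme that cuts microRNA precursors. The first is called the cancer cell array below and the last the anti-Dicer array (Dicer antibody in the plots). All cells were grown in medium whose serum had been depleted of exosomes, and the exosomes came from ultracentrifugation. Dose, time and whether the RNAs came from separate cultures were not stated. With 1 array per group no difference has a replicate check, a test or an interval, so precision is limited by the number of arrays.

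The plasminogen system dissolves fibrin and helps cells clear a path through matrix. Urokinase and tissue plasminogen activator cut plasminogen into the protease plasmin, a receptor holds urokinase on the cell surface, and serpins trap the activators. Tissue factor and thrombomodulin act on the clotting side of the same balance, and urokinase with its receptor is much studied in invasive breast cancer.

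Across the 4 arrays, members of the system were detected on the untreated and anti-Dicer arrays only. The same held for 43.9% of all genes, and the cancer cell and exosome arrays detected only 1380 and 1381 of 20043 genes. Transcripts of both activators, the urokinase receptor, the inhibitor protease nexin-1 (SERPINE2) and tissue factor were detected on both the untreated and the anti-Dicer array. The clearest differences between the pair were in urokinase (PLAU), 3.14- to 4.0-fold higher on the anti-Dicer array over 6 ways of scaling the arrays, and SERPINE2, 2.57- to 4.50-fold lower there. PLAT, PLAUR and F3 stayed within 2-fold, and thrombomodulin (THBD) was detected on no array. Fewer cells of a type and less RNA per cell cannot be told apart in such bulk RNA.

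Promoters are shown for PLAU, SERPINE2, PLAUR and F3, of which PLAUR and F3 lay within 2-fold. Each is the 250 bases before a start site in RefSeq's table for GRCh38.p14, written 5′ to 3′ on the gene's own strand. Capitals mark matches to 4 motifs searched on both strands: AP-1 (TGANTCA), the TATA box (TATAAA), Sp1 (GGGCGG) and NF-kB (GGGA, any 4 bases, then CC). Where a gene had 2 start sites, the window with more matches is given.
PLAU, chr10:73910882-73911131, plus strand: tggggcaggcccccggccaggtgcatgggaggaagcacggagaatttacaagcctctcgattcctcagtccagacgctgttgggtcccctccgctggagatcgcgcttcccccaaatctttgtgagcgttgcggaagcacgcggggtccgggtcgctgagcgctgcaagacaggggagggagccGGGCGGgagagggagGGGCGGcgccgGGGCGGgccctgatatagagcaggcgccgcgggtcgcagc
SERPINE2, chr2:224038641-224038890, minus strand: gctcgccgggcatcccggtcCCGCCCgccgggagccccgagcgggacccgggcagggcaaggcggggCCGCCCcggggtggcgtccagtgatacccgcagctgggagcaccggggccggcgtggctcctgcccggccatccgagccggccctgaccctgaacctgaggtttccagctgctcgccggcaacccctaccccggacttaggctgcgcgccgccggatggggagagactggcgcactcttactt
PLAUR, chr19:43670170-43670419, minus strand: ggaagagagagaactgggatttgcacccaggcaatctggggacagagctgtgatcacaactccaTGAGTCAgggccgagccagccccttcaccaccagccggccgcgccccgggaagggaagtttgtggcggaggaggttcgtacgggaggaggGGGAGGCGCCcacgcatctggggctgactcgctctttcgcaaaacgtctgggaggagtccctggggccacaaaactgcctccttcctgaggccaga
F3, chr1:94541760-94542009, minus strand: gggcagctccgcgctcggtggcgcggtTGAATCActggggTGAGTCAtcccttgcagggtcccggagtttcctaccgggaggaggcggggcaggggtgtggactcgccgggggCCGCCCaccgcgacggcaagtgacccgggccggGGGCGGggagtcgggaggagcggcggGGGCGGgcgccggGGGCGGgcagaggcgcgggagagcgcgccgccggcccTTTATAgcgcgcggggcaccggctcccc

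PLAU had 3 Sp1 matches, the closest 40 bases before the start site, and SERPINE2 had 2. PLAUR had 1 AP-1 match, TGAGTCA, 186 bases before the start, and 1 NF-kB match. F3 had 2 AP-1 matches, 223 and 210 bases before the start, together with 4 Sp1 matches and a TATA box on the opposite strand. Among all 35116 promoter windows of the same length, 6.57% held an AP-1 match, 10.7% a TATA box, 42.6% an Sp1 match and 22.6% an NF-kB match, and no motif overlapped another in these 4 windows. The other PLAU window held none of the 4 motifs and the other SERPINE2 window held 1 Sp1 match. A match describes the letters and is not a binding site. On GRCh38.p14 the genes lie at chr10:73908832-73917494 (PLAU), chr19:43646095-43670169 (PLAUR), chr2:223975045-224039286 (SERPINE2) and chr1:94529173-94541759 (F3), with PLAT at chr8:42174718-42207565 and THBD at chr20:23045633-23049672.

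The arrays differed widely in how much they detected. At a detection p-value below 0.01, which ranks a probe against the negative controls of its own array, the untreated array detected 11361 genes and the anti-Dicer array 11269, but the cancer cell array 1380 and the exosome array 1381. The lowest detected signals were 67.8, 72.1, 67.9 and 81.0 units in that order, and the highest signals on the 4 arrays lay between 19398 and 21382 units. KRT5 and KRT14, keratins of basal breast epithelium, and the epithelial adhesion gene CDH1 were not detected on any array, at 39.8 to 53.6 units. The other 5 epithelial markers with a probe were detected somewhere: KRT8 and KRT18 on the anti-Dicer array, KRT19 on the untreated array, and EPCAM and LAMB3 on both. All 10 fibroblast markers examined, such as COL1A2 and THY1, passed detection on the untreated array, 6 on the anti-Dicer array and none on the other arrays, and the MCF10A labels are used below as names only.

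PLAU encodes urokinase, the activator that works mainly at cell surfaces. Its probe, ILMN_1656057, read 57.9 units on the cancer cell array, 61.8 on the exosome array, 2019 on the untreated array and 6334 on the anti-Dicer array. The first pair was not detected and the second pair was, with the anti-Dicer array highest. The deposited signals differed by 3.14-fold between the anti-Dicer and untreated arrays. After background correction and quantile normalization the log2 difference was 2.0, and over 6 scalings of the arrays the fold ran from 3.14 to 4.0. In the authors' value table PLAU stood at 669.9 and 2739 units. Of 12476 genes compared on these arrays, 582 differed further in the upward direction.

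PLAT encodes tissue plasminogen activator, which acts best on fibrin. Its probe read 49.8 units on the cancer cell array, 51.2 on the exosome array, 1024 on the untreated array and 1112 on the anti-Dicer array. The 2 activators thus differed in their pattern. PLAT was nearly level between the arrays that detected it, with a log2 difference of 0.36 and a fold between 1.09 and 1.28 over the 6 scalings, while PLAU differed by more than 3-fold in each.

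**Figure D1:**
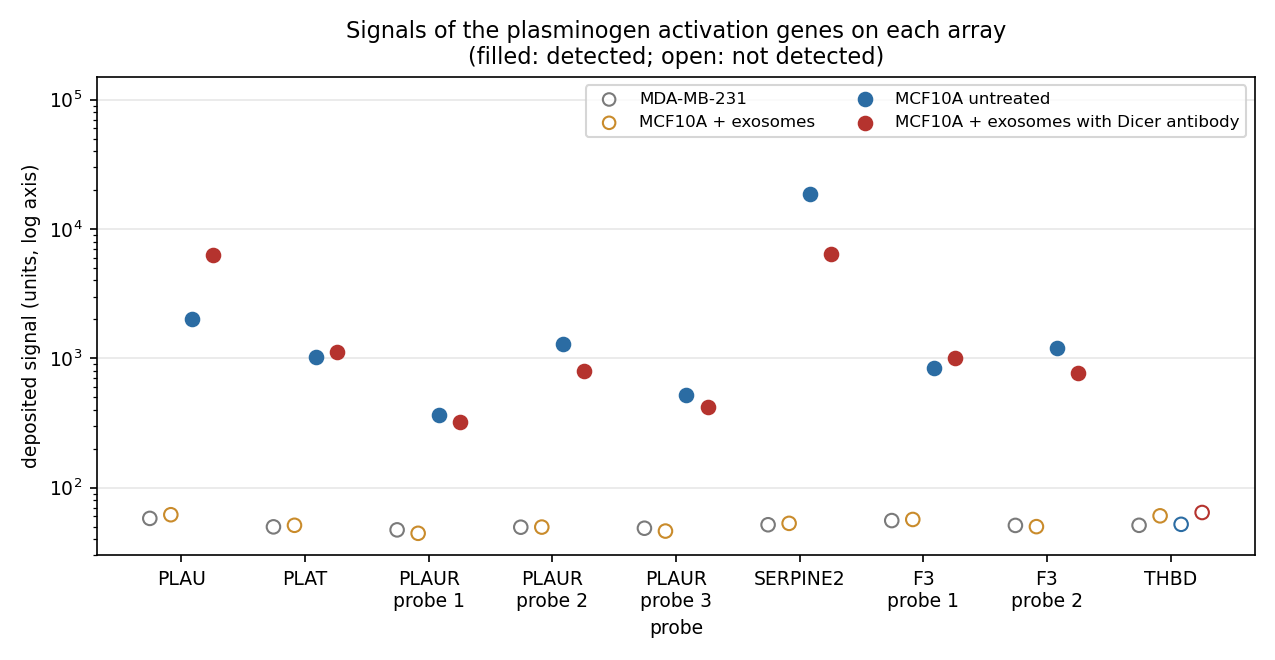
Deposited signal (log axis, units) of each of the 9 probes on the 4 arrays, 1 point per array, filled where detected. On the cancer cell and exosome arrays all points lie between 44.4 and 61.8 units, and on the other arrays all but THBD are detected.

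PLAUR encodes the urokinase receptor, which is tethered to the membrane by a lipid anchor. Its brightest probe, ILMN_2374340, read 49.5 units on the cancer cell array, 49.6 on the exosome array, 1288 on the untreated array and 795.1 on the anti-Dicer array. The probe ILMN_2408543 read 48.6, 46.2, 521.1 and 421.4 units on the arrays in that order, and ILMN_1691508 read 47.2, 44.4, 366.6 and 319.6 units. All 3 probes were detected on the same pair of arrays, and all 3 were lower on the anti-Dicer array by less than 2-fold. Their log2 differences were -0.47, -0.13 and -0.04, and each kept its sign under the 6 scalings. The receptor and its ligand PLAU therefore stood on opposite sides of 0, with a difference of 2-fold or more in the ligand alone.

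SERPINE2 encodes protease nexin-1, a serpin that inhibits thrombin, urokinase, tissue plasminogen activator and plasmin. Its probe, ILMN_1655595, read 51.7 units on the cancer cell array, 53.0 on the exosome array, 18665 on the untreated array and 6452 on the anti-Dicer array. It was detected on the same pair as the activators, and here the untreated array was higher. The deposited signals differed by 2.89-fold and the normalized log2 difference was -2.17, with folds from 2.57 to 4.50 over the 6 scalings and 5.94 in the authors' value table, at 16595 against 2793 units. The untreated reading lay close to the highest signal on that array, 20732 units, where saturation was not recorded in the files. Of the 12476 genes, 625 differed further in the downward direction. SERPINE2 was the only inhibitor among the 7 genes that could be measured, since SERPINB2, which encodes plasminogen activator inhibitor-2, was not analysed here.

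F3 encodes tissue factor, the cell-surface protein that starts clotting by binding factor VII. Its brighter probe, ILMN_2129572, read 51.1 units on the cancer cell array, 50 on the exosome array, 1210 on the untreated array and 765.5 on the anti-Dicer array. The second probe, ILMN_1797009, read 55.7, 56.8, 846.2 and 1011 units on the arrays in that order. Both were detected on the untreated and anti-Dicer arrays alone, but they went in opposite directions between them. The log2 differences were -0.44 and 0.48, each sign held under the 6 scalings, and their mean was 0.02, so no direction is given for F3.

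THBD encodes thrombomodulin, which turns thrombin towards activating the anticoagulant protein C. Its probe read 51.2 units on the cancer cell array, 60.6 on the exosome array, 52.1 on the untreated array and 64.3 on the anti-Dicer array. None of these readings was above background, the nearest being the anti-Dicer array at a detection p-value of 0.057, and no fold is given. Of all genes on the array, 36.9% were detected on no array.

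**Figure D2:**
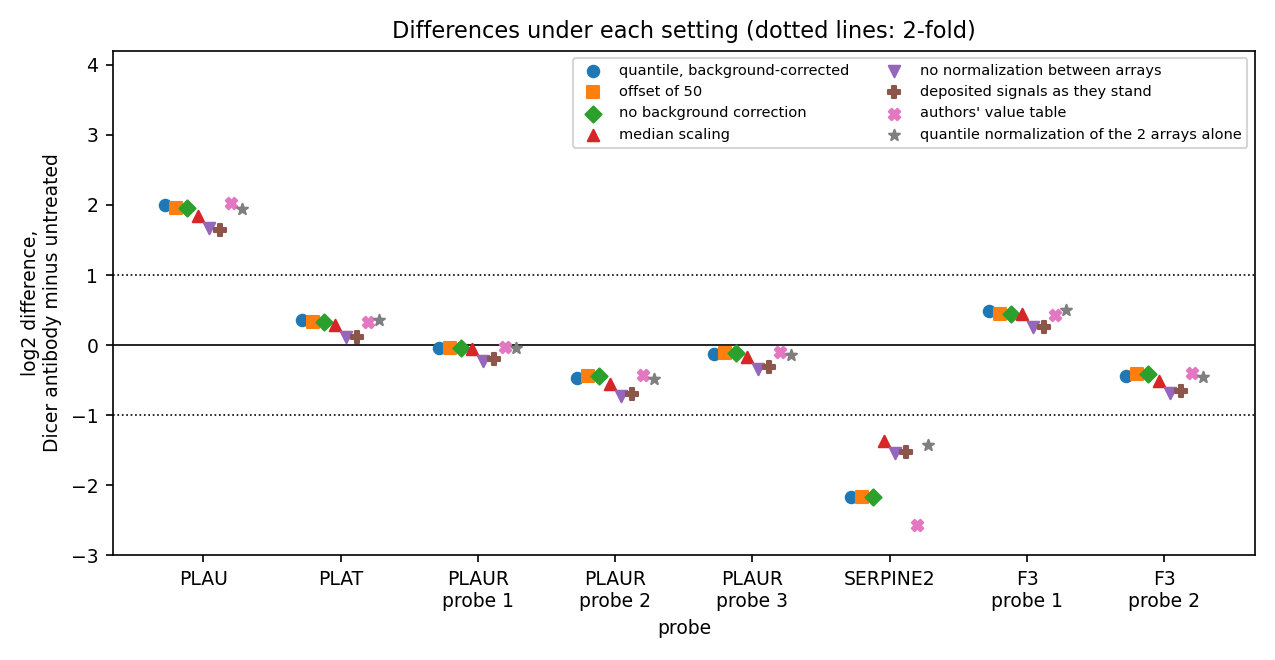
Log2 difference between the anti-Dicer and untreated arrays (y axis) for the 8 detected probes (x axis), 1 point per setting, dotted lines at 2-fold. PLAU lies above and SERPINE2 below the 2-fold lines under every setting plotted, PLAT, PLAUR and F3 lie between the lines, and the 2 F3 probes lie on opposite sides of 0.

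Of the 6 genes with a probe, 5 were detected on at least 1 array and could be compared between the anti-Dicer and untreated arrays. A difference of at least 2-fold was counted as a call. One of the 5 (20.0%), PLAU, was called higher, against 15.2% of all genes compared. One of the 5, SERPINE2, was called lower, against 17.5% of all genes. Both shares are near those of all genes. The median log2 difference was -0.02 over all genes. Over the 5 members it had no settled sign, as it followed the F3 probe used: -0.44 with the brighter probe, 0.36 with the other and 0.02 with their mean.

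**Figure D3:**
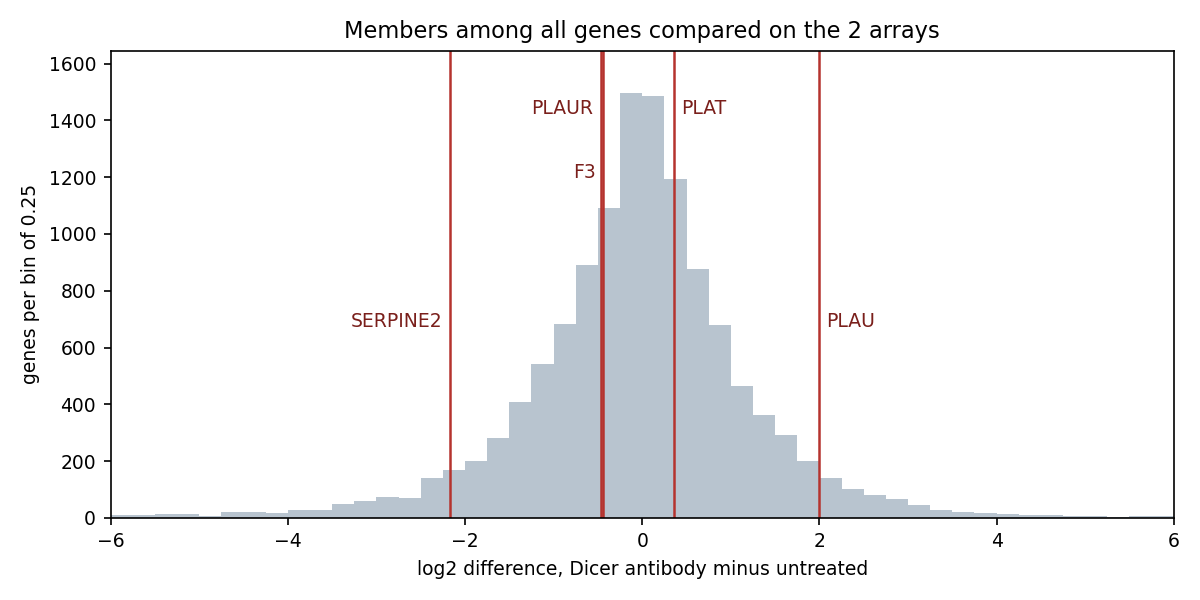
Number of genes (y axis) by log2 difference between the anti-Dicer and untreated arrays (x axis, bins of 0.25) for the 12476 genes compared, with red lines at the members' brightest probes. PLAU at 2.0 and SERPINE2 at -2.17 lie towards its tails, and PLAUR, F3 and PLAT lie near the centre.

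Markers of other cell types differed between the same arrays. The 10 fibroblast markers were all lower on the anti-Dicer array, with a median log2 difference of -5.29 and a summed signal of 70464 units on the untreated array against 2633 on the anti-Dicer array. Epithelial markers summed to 590.5 and 4122 units, with 3 and 4 of 8 detected. The laminin chain gene LAMB3 alone read 145.1 and 3186 units by its brightest probe, while its other probes read at most 74.9 units. KRT8, KRT18 and LAMB3 were at least 2-fold higher on the anti-Dicer array. KRT19 went the other way, at 123.8 units on the untreated and 58.5 on the anti-Dicer array, where it was not detected, with a bound of 1.99-fold lower. Markers of endothelium, a known source of THBD and PLAT, were detected for 2 and 1 of 8 genes and summed to 490.2 and 681.3 units, with VWF and CDH5 not detected. PECAM1 among them read 82.2 and 293.5 units, 4.21-fold higher on the anti-Dicer array, or 2.64-fold at its smallest over the 6 scalings. TEK was lower there, at 95.6 units on the untreated and 59.9 on the anti-Dicer array, where it was not detected. Its log2 bound of -0.58 lay within 2-fold. Monocyte and macrophage markers were detected for 3 and 4 of 8 genes and summed to 3151 and 1438 units, without PTPRC. CD68 carried that sum, at 2488 and 410.1 units, while CD14 was higher on the anti-Dicer array, at 297.9 and 624.6 units. Platelet markers were detected for 1 of 4 genes on each array and summed to 264.1 and 278.3 units. On the remaining arrays the 5 lists summed to between 232.4 and 526.3 units, with 1 monocyte and macrophage marker detected on each and 1 platelet marker on the exosome array. The fibroblast markers and SERPINE2 were lower on the same array, and 3 epithelial markers and PLAU were higher on it while KRT19 was not. The part of cell type in these differences was not tested.

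**Figure D4:**
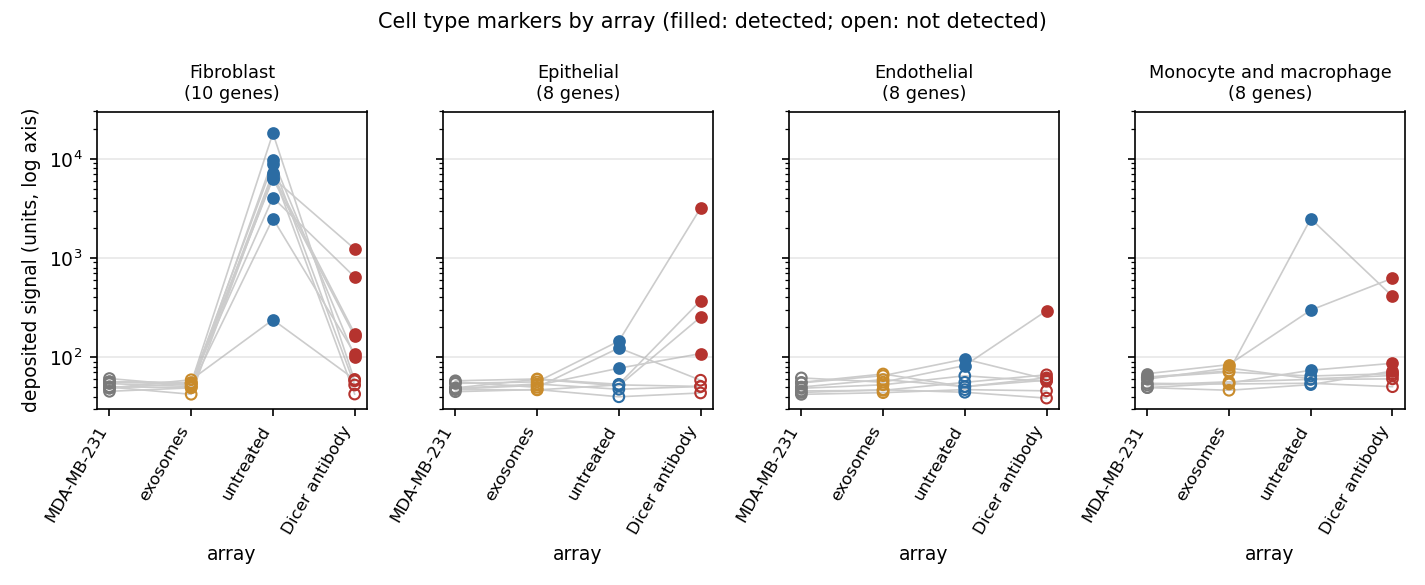
Deposited signal (log axis, units) of each marker gene on the 4 arrays (x axis), lines joining the same gene, filled points where detected. The median fibroblast marker stands at 6647 units on the untreated and 104.5 on the anti-Dicer array, where LAMB3 among the epithelial markers stands at 3186.

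On the cancer cell and exosome arrays all 18 readings of the 9 probes lay between 44.4 and 61.8 units, with detection p-values from 0.142 to 0.919. No member was detected on either, so the arrays cannot be ranked for any member and no fold is given between them. Detection on the untreated and anti-Dicer arrays and on neither of the others was shared by 5 of the 6 members with a probe and by 43.9% of all genes. No gene of the wider pathway list described below was detected on the cancer cell or exosome array. Of all 20043 genes, these arrays detected 1380 and 1381. Group and the number of probes detected cannot be told apart in these comparisons.

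Differences across that gap are bounds, taken against the lowest detected signal of the dimmer array and given at their smallest over the 6 scalings. SERPINE2 was at least 20.1-fold lower on the exosome array and at least 20.4-fold lower on the cancer cell array than on the untreated array. PLAU was at least 1.14-fold and at least 1.15-fold lower on these arrays. Against the anti-Dicer array the bounds were alike for both genes. PLAU was at least 4.42-fold higher on the anti-Dicer array than on the exosome array, and SERPINE2 at least 4.49-fold. Over the cancer cell array the bounds were at least 4.48-fold and at least 4.55-fold. For PLAT, PLAUR and F3 the bound left no difference under 3 of the 6 scalings.

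Counted after quantile normalization, 1 of 5 members was at least 2-fold lower on the exosome array than on the untreated array, against 5.56% of all genes, and 1 of 5 on the cancer cell array, against 5.72%. On the anti-Dicer array 2 of 5 members were at least 2-fold higher than on the exosome array, against 5.09% of all genes, and 2 of 5 were higher than on the cancer cell array, against 5.3%. Such a count depends on how bright a gene was on the fuller array, since quantile normalization put the lowest detected log2 value at 9.64 on the cancer cell array and 9.66 on the exosome array, against 4.83 and 4.82 on the untreated and anti-Dicer arrays. In the deposited signals as they stand all 5 members passed 2-fold in each of these 4 comparisons, as did 67.4%, 73.4%, 66% and 72.9% of all genes compared, in the order given. These comparisons share arrays and are not independent of each other.

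Other genes of plasminogen activation, clotting, cell-surface binding and uptake were taken from a list of 58, of which 55 had a probe. On the untreated array 29 were detected and on the anti-Dicer array 28, where 11361 and 11269 of all 20043 genes were detected. Of 31 genes of the list compared between these arrays, 4 were at least 2-fold higher on the anti-Dicer array. A further 9 were lower and 18 lay within 2-fold, with a median log2 difference of -0.31. These are 12.9% higher and 29% lower, against 15.2% and 17.5% of all genes compared. Plasminogen itself (PLG), mainly a liver product, was not detected on any array, at 42.8 to 49.8 units, and of the 3 fibrinogen chain genes only FGA was detected, on the anti-Dicer array at 76.0 units.

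Receptors of activator uptake and partners of PLAUR did not go 1 way. LRP1, the endocytic receptor that takes up urokinase bound to its inhibitors, read 1760 units on the untreated and 61.1 on the anti-Dicer array, where it was not detected, and was at least 13.5-fold lower. VLDLR and SORL1, uptake receptors of the same family, were within 2-fold, with log2 differences of 0.05 and 0.55. MRC2, a collagen receptor found with the urokinase receptor, read 665.5 and 92.8 units, 7.82-fold lower, or 4.65-fold at its smallest over the 6 scalings. The integrin chain ITGB1, a partner of PLAUR, read 15915 and 4683 units and was 3.96-fold lower, with a second probe at -1.65 on the log2 scale. The integrin chains ITGAV, ITGA3 and ITGA5 were within 2-fold, at 0.57, 0.73 and -0.16, while a second ITGA3 probe went the other way, at -0.31. ITGB5, part of a vitronectin receptor, was 2.54-fold lower, and the formyl peptide receptor gene FPR1 was at least 2.39-fold lower. CD59, a complement inhibitor with the same protein fold as PLAUR, was 3.94-fold lower, at 2456 and 534.6 units. In the other direction ITGB3, another vitronectin receptor chain, was at least 2.24-fold higher, and LYPD3, a relative of PLAUR, was 2.04-fold higher, or 1.48-fold under the scaling that gave the smallest value.

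Among the clotting genes, TFPI2, an inhibitor of plasmin and of the tissue factor pathway, read 1464 units on the untreated and 298.0 on the anti-Dicer array, 4.43-fold lower. Protein S (PROS1), the cofactor of activated protein C, read 1286 and 242.9 units, 4.91-fold lower, and its relative GAS6, a ligand of receptor kinases, read 12078 and 1342 units, 9.15-fold lower. Factor XII (F12), which starts the contact pathway, read 82.7 and 302.5 units, 4.31-fold higher (2.70 at its smallest). The thrombin receptor gene F2RL2 read 80.6 and 339.3 units, 5.04-fold higher (3.04 at its smallest). A second F2RL2 probe was detected on neither array, at 47.1 and 54.5 units. F2R, also a thrombin receptor gene, read 16527 and 15237 units by its brightest probe, within 2-fold. Its second, dimmer probe read 206.6 and 758.5 units, with a log2 difference of 2.11. TFPI, the inhibitor that shuts off tissue factor, was within 2-fold, at 918.5 and 1413 units.

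Of genes whose products bind plasminogen at the cell surface, S100A10 read 12545 units on the untreated and 6310 on the anti-Dicer array, and its partner ANXA2 read 17640 and 14147 units. ENO1 read 13567 and 16747 units and the plasminogen receptor gene PLGRKT 1199 and 860.1 units. All 4 differed by less than 2-fold by their brightest probes, with log2 differences of -0.95, -0.68, 0.71 and -0.25. S100A10 lay close to the 2-fold limit, and the other ANXA2 probes disagreed, at 0.63 and -1.74.

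**Figure D5:**
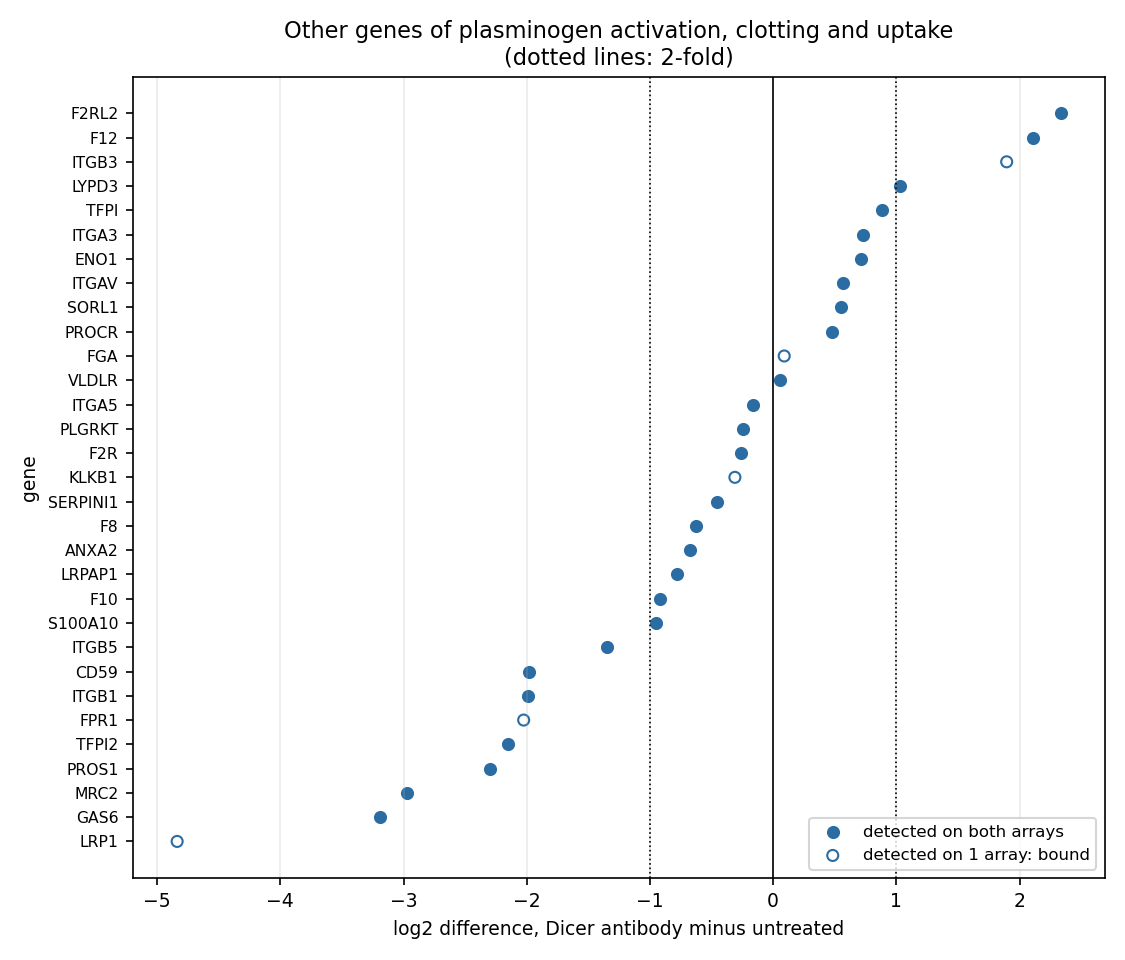
Log2 difference between the anti-Dicer and untreated arrays (x axis) for the 31 genes of the pathway list that could be compared (y axis), 1 point per gene, open where the value is a bound, dotted lines at 2-fold. LRP1, GAS6 and MRC2 lie furthest to the left and F2RL2 and F12 furthest to the right.

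For each member detected, the genes with the nearest 4 normalized values were found by Euclidean distance among 8802 other genes detected on the same arrays. Such a distance follows brightness as well as the difference between arrays, so it does not show how common a difference was. Nearest to PLAU was PHGDH, a serine synthesis enzyme, at a distance of 0.52 log2 units, with 2715 units on the untreated and 6481 on the anti-Dicer array. RPL21 and LDHB followed at 0.68 and 1.08. Nearest to SERPINE2 were RTN4 at 0.50, with 17530 and 5651 units, then MYL6 at 0.59 and CYB5R3 at 1.03. PLAT lay nearest to TMEM106C, AEN and METTL13, at 0.12 to 0.14, and PLAUR nearest to WIPI1, ANKIB1 and MRPL54, at 0.12 to 0.13. For the brighter F3 probe the nearest gene was PLAUR itself, at 0.14, followed by CTBP1 and YIF1B. The distances rest on 4 arrays, 2 of which hold background only for these genes.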

How the data were processed

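Signals came from a 1-colour Illumina bead array of biotin-labelled RNA copies, 4 arrays, 1 per group. The deposited non-normalized table gives each probe 1 linear intensity for every array, background included, and a deposited detection p-value. The authors' value table holds intensity values normalized by the authors in a way not given in the sources used here; its column for the exosome array holds detection p-values instead, within 0.0026 of those in the other table, and was not used as a signal. Per the submitters' processing notes, limma was among their tools.

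Of 47322 probes, 30110 had 1 gene symbol in the platform annotation, 8 several and 17204 none; 30071 were matched to current symbols by gene identifier. Signals were background-corrected from the detection p-values, quantile-normalized and logged with neqc (limma 3.58.1, R 4.3.3, offset 16). A check on simulated arrays drew every array from the untreated array's signals, with changes placed in probes dimmer than SERPINE2. It therefore does not cover arrays that detect few genes or probes as bright as SERPINE2. Each gene was represented by its probe of highest mean deposited signal, a rule settled after seeing the data. The 6 scalings were this one, an offset of 50, no background correction, median scaling, no normalization between arrays, and the deposited signals. A gene detected on 1 of 2 arrays gave a bound against the dimmer array's lowest detected value or the gene's own value there, whichever was higher. Calls are 2-fold differences, without tests. All 7 members are named, with every pathway gene called between the untreated and anti-Dicer arrays. Members and lists were chosen with earlier results of these data known. Pathway genes within 2-fold and markers named in the text were picked after their values were seen. Software was Python 3.11.15 with pandas 2.3.3, numpy 2.4.6 and matplotlib 3.10.9.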

Additional observations from a re-analysis of the deposited data

How the results depend on the processing

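Between the anti-Dicer and untreated arrays the count of members called stayed at 2, PLAU and SERPINE2, under each of the 12 alternatives tried. For PLAU and SERPINE2 the detection and probe-choice alternatives could not alter the values, since each had a single probe detected on both arrays. The log2 difference of PLAU ran from 1.65 to 2.03 and that of SERPINE2 from -1.36 under median scaling to -2.57 in the authors' value table; it was -1.54 with no normalization between arrays, -1.53 in the deposited signals and -1.42 with the 2 arrays normalized alone, the last chosen after seeing the data. For F3 the direction followed the probe: choosing the probe of highest mean normalized value, also added after seeing the data, gave 0.48. Over all genes 4080 were called; an alternative count differed by more than 1.5 times only in the authors' value table, 2606. Genes detected on both arrays had a median of -0.15 with no normalization between arrays and -0.11 in the deposited signals.

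Comparisons across the gap in detection rested on the scaling. Against the untreated array, 1 member was called on the exosome array and 1 on the cancer cell array. In both this became 5 under median scaling, no normalization between arrays and the deposited signals, and 2 at a detection p-value below 0.05. It became 0 over genes detected on both arrays, where no member could be compared. With no detection filter it became 6 and 5. The 6 were 5 lower and 1 higher on the exosome array, the 1 being THBD, which was detected on no array. For the anti-Dicer array against the exosome and cancer cell arrays, 2 became 5 under the same 3 scalings and 0 over genes detected on both arrays. With no detection filter the counts were 6 and 5. Here the 6 were 5 higher on the anti-Dicer array and THBD lower. Between the exosome and cancer cell arrays 0 became 1 with no detection filter. This was THBD again, detected on neither array, at 4.33-fold after quantile normalization and 1.18-fold in the deposited signals. In the deposited signals 67.4% and 73.4% of all genes compared were at least 2-fold lower on the exosome and cancer cell arrays than on the untreated array. On the anti-Dicer array 66% and 72.9% were at least 2-fold higher than on the exosome and cancer cell arrays. Shares of all genes under the other alternatives were not counted for these comparisons. Detection of members was the same at 0.05. No paired analysis was possible because each group had 1 array, and no array could be left out.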

Other observations

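The wider serpin family, looked at after the members' values were known, was mixed between the untreated and anti-Dicer arrays. Of 30 further serpin genes with a probe, none was detected on the cancer cell or exosome array. Those arrays detected 1380 and 1381 of all 20043 genes. Of 12 compared between the untreated and anti-Dicer arrays, 1 was at least 2-fold higher on the latter, 4 were lower and 7 lay within 2-fold. These are 8.33% higher and 33.3% lower, against 15.2% and 17.5% of all genes compared. SERPINB5 (maspin), known from normal breast epithelium, read 393 units on the anti-Dicer array and 46.9 on the untreated array, where it was not detected, and was at least 3.83-fold higher. SERPING1, the inhibitor of complement C1, read 585.6 units on the untreated and 58.7 on the anti-Dicer array and was at least 4.89-fold lower. SERPINB7 was at least 4.80-fold lower, at 574.4 and 68.9 units, and SERPINF1, an inhibitor of blood vessel growth, at least 2.05-fold lower. SERPINH1, the collagen chaperone, was 2.68-fold lower, at 1966 and 629 units.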
